A study of Rattus norvegicus with 16 samples.

Results

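Injured rat supraspinatus muscle taken at 30 days was compared with injured supraspinatus muscle taken at 10 days, in separate libraries. All rats were Sprague Dawley. Every one of the 8 libraries compared came from rats whose supraspinatus was torn through its full thickness, bilaterally, and whose suprascapular nerve was cut out (suprascapular neurectomy), 4 libraries taken 10 days and 4 taken 30 days after surgery. The series has 16 libraries in all, and the other 8 came from unoperated muscle (0 days) and from muscle 60 days after the same surgery, 4 each. Age, sex and any repair of the tendon are not stated in the labels, and neither is whether any libraries came from 1 rat, so the p-values below measure the spread between libraries. Because tear and nerve removal were done together, their contributions cannot be told apart. The members were all 17147 genes of the deposited table, of which 11658 had enough fragments to be tested.

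The supraspinatus is one of the rotator cuff muscles that hold and lift the shoulder, and the suprascapular nerve drives it. A muscle that loses its tendon anchor and its nerve shrinks. Its fibres spread acetylcholine receptors beyond the old nerve contact, raise ubiquitin ligases and lysosomal enzymes that break down protein, and lower the genes of contraction and energy supply. Rotator cuff muscle in this state is known for replacement by fat and scar.

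Levels are given as CPM, a gene's fragments per 1 M fragments (M, mega) after TMM scaling, in libraries 1 to 4 of each group, numbers that only name the libraries. A gene is called at an edgeR adjusted p under 0.05, and fold changes are of 30 against 10 days on the log2 scale, with their standard error (SE). From 10 to 30 days 5513 genes were called, 47.3% of those tested, 2680 of them higher (23.0%) and 2833 lower (24.3%). At least 2-fold changes were found in 1046 genes (588 higher, 458 lower) and at least 4-fold changes in 120 (70 higher, 50 lower). For 5103 genes (43.8%) the 4 libraries of one time lay entirely above the 4 of the other. The split depended on scaling: with library totals 1533 genes were higher and 4021 lower, 27.6% higher against 48.6% with TMM, while the median of all genes moved from 0.03 to -0.13. Every count of genes below should be read beside these percentages.

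**Figure D1:**
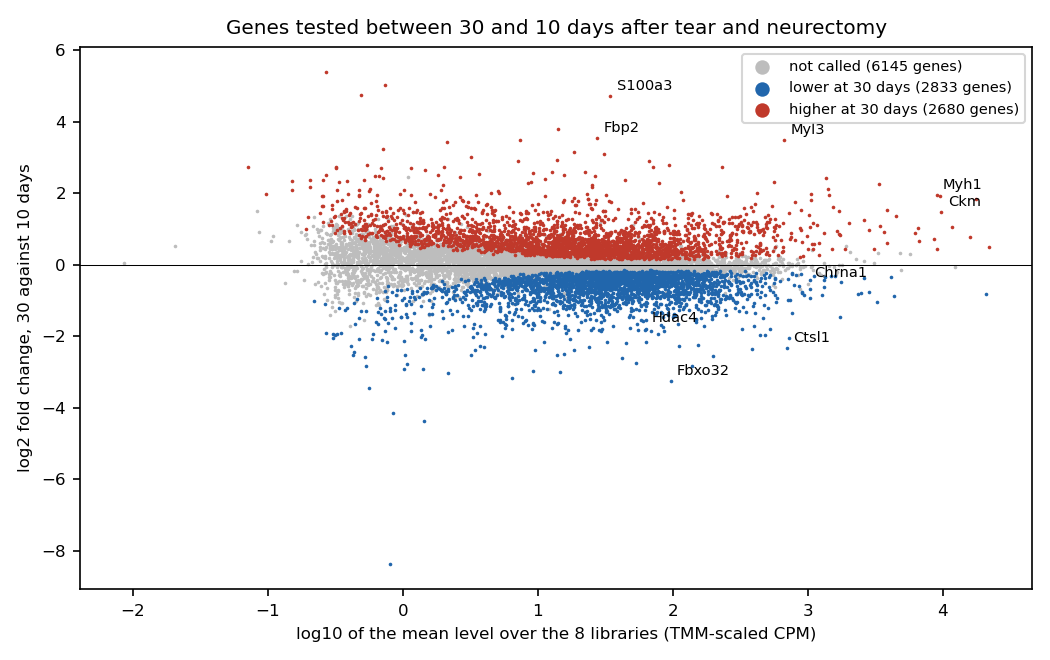
Each point is 1 of the 11658 genes tested, placed by its mean level over the 8 libraries (TMM-scaled CPM, log10, horizontal) and its log2 fold change at 30 against 10 days (vertical). Red points are the 2680 genes called higher, blue the 2833 called lower and grey the rest. Fbxo32 lies low at -3.27, and S100a3 lies high at 4.72.

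Depth did not separate the groups, with totals of 26.5 ± 1.76 M fragments at 10 days and 28.02 ± 7.96 at 30 days (mean ± SD, n = 4, two-sided exact permutation p 0.971). A level of 3 fragments, the most that a count of 0 allows, was 0.0752 to 0.131 per 1 M fragments in the 8 libraries. This floor was taken from library totals before TMM scaling, and covers counting error only. The 10 most abundant genes took 13.3% ± 0.96 of fragments at 10 days and 18.4% ± 1.70 at 30 days (n = 4, exact permutation p 0.0286, the smallest this design allows, adjusted p 0.0857 over 3 measures). Muscle fibre genes were abundant in all 16 libraries, the lowest value of Acta1, Ckm, Des, Mb and Tnnt3 being 3029.96 CPM. Sample titles end in L or R, with no meaning stated: at 10 days library 1 is the L and the rest are R, and at 30 days library 1 is the R and the rest are L. With R titles alone 2027 genes were called and with L titles alone 2528, each time with 1 library on one side. In many of the rises below library 1 of each group lay nearest the other group. Fbp2, Idh2, Ndufs7, Myl3, Myh1, Ckm, Ckmt2, Hadh, Slc2a4, Aqp4 and Vegfa are examples, while Myh3 and S100a3 are not. Whether the title letter has a part in that was not tested. The medians of complex I and of complexes II to V below were 0.80 and 0.78 with R titles alone, and 0.99 and 1.05 with L titles alone. Over all called genes the nearest was library 1 at 10 days (median log2 distance 0.465) but library 4 at 30 days (0.455, against 0.487 for library 1). With the title letter added to the model 4935 genes were called, 2356 higher and 2579 lower. List counts of 0 to 3 genes below could change by 1 when a library was left out.

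Many genes of protein breakdown fell. Fbxo32 (atrogin-1), a muscle ubiquitin ligase that marks proteins for destruction in atrophy, stood at 167, 212, 172 and 147 CPM at 10 days and at 19.7, 21.3, 13.9 and 17.5 at 30 days. The groups lay far apart and Fbxo32 fell 9.62-fold (-3.27 ± 0.25 SE, edgeR adjusted p 2.03e-07), the largest fall among the genes that could be named. Its level was 50.7 ± 13.1 CPM (SD, n = 4) in unoperated muscle and 17.7 ± 7.05 at 60 days, so the 30-day libraries lay among the 60-day ones and under all the unoperated ones. Trim63 (MuRF1), the other well-known ligase of atrophy, stood at 553, 807, 737 and 555 CPM at 10 days and 550.3, 467, 389.97 and 390.3 at 30 days. Its groups did not overlap but the difference was not called (-0.56 ± 0.24 SE, edgeR adjusted p 0.0619). Without library 1 of 30 days it was (-0.67, adjusted p 0.0464), and with library totals as well (-0.72, adjusted p 0.0204). Fbxo30, a ligase that acts downstream of BMP signalling, ranged over 119.9 to 137 and 86.5 to 150.2 CPM and was not called (-0.07). Foxo1, a transcription factor that drives atrophy genes, fell from 11.6 to 13.8 to 4.201 to 6.94 CPM (-1.12 ± 0.24 SE, edgeR adjusted p 0.00102). In the list of ubiquitin ligases and growth restraint 12 of 26 tested genes were lower and 0 higher, with a median of -0.43.

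The proteasome, which degrades the tagged proteins, declined by less and more evenly. Of 31 subunits 18 were lower and 0 higher, with a median of -0.19 and a range of -0.95 to 0.08. With library totals 29 were lower, and with upper-quartile factors 15. The regulatory subunit Psmd11 changed most of the list, from 309, 349, 313 and 325 CPM to 157, 174, 165 and 176 (-0.95 ± 0.09 SE, edgeR adjusted p 7.37e-07). All 4 libraries of 30 days lay under all 4 of 10 days, and the subunit Psmd1 did likewise, going from 350.1 to 405 to 215 to 238 CPM (-0.76 ± 0.09 SE, edgeR adjusted p 4.69e-06). The catalytic core subunit Psmb5 stayed within an overlapping range, 189.8 to 221 and 176 to 208 CPM (-0.05 ± 0.08 SE, edgeR adjusted p 0.618).

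Autophagy and lysosome genes fell as well, 14 of 24 lower and 1 higher (median -0.28). Ctsl1, the gene of the lysosomal protease cathepsin L, was at 963, 1479.5, 1006 and 1227 CPM at 10 days and 331, 202, 171 and 218 at 30 days, a 5.07-fold fall (-2.34 ± 0.18 SE, edgeR adjusted p 1.19e-07). The groups were well separated, and at 60 days the mean was 175 ± 13.3 CPM against 123 ± 8.83 in unoperated muscle. Sqstm1 (p62), which carries tagged cargo to the autophagosome, fell from 1415, 1924, 1641 and 1602 to 926, 867, 889 and 979 CPM (-0.85 ± 0.10 SE, edgeR adjusted p 4.97e-06). Map1lc3b, which coats the autophagosome membrane, fell by a like size (-0.77 ± 0.09 SE, edgeR adjusted p 6.64e-06), from 363 to 434 to 217 to 261 CPM. Gabarapl1 of the same family fell less (-0.55 ± 0.07 SE, edgeR adjusted p 1.67e-05), and so did the mitophagy receptor Bnip3 (-0.38 ± 0.12 SE, edgeR adjusted p 0.0122). The called rise of the list was Ctss (cathepsin S), a protease of macrophages as well as an autophagy entry, whose levels were 10.3 to 14.8 CPM at 10 days and 17.7 to 21.5 at 30 days (0.63 ± 0.20 SE, edgeR adjusted p 0.0184). That call was lost without library 2 of 10 days (0.55, adjusted p 0.0592), without library 2 of 30 days (0.58, adjusted p 0.0509) and with library totals (0.47, adjusted p 0.0847).

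**Figure D2:**
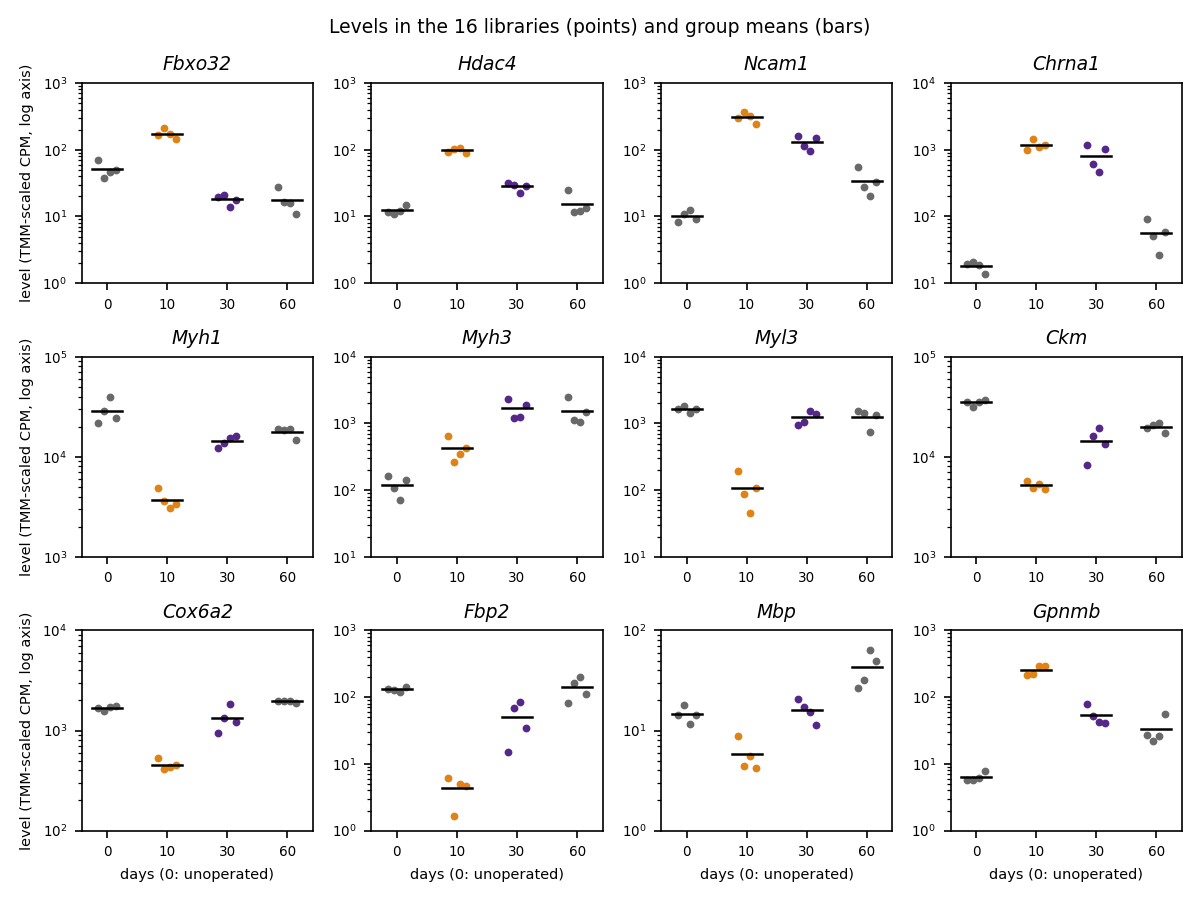
Points are the 16 libraries at 0 (unoperated), 10 (orange), 30 (purple) and 60 days, bars are group means, and the vertical log axes give TMM-scaled CPM for 12 genes. In Fbxo32, Hdac4, Ncam1 and Gpnmb all 30-day points lie under all 10-day points, in Myh1, Myh3, Myl3, Ckm, Cox6a2, Fbp2 and Mbp they all lie above, and in Chrna1 they overlap.

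Acetylcholine receptor genes, which a fibre switches on along its whole length after nerve loss, did not move as a group. Chrna1, the receptor's alpha subunit, stood at 979.8, 1461, 1106 and 1177 CPM at 10 days and 1161, 616, 465 and 1031 at 30 days. Libraries 1 and 4 of 30 days lay within the 10-day range and libraries 2 and 3 below it, and the difference was not called (-0.53 ± 0.31 SE, edgeR adjusted p 0.175). Unoperated muscle had 18.4 ± 3.07 CPM and muscle at 60 days 56.7 ± 26.8. The fetal gamma subunit Chrng, present in receptors of uninnervated fibres, was at 98.02, 149.8, 132 and 135 and 372, 77.1, 71.8 and 195 CPM, with the 30-day libraries on both sides of the 10-day ones (0.47 ± 0.39 SE, edgeR adjusted p 0.339). The adult subunit Chrne overlapped too (42.8 to 72.6 and 49.8 to 106 CPM, 0.40 ± 0.23 SE, edgeR adjusted p 0.160).

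Other junction and denervation genes did differ. Ncam1, an adhesion molecule that denervated fibres display, fell from 300.3, 367, 318 and 240.3 to 160.2, 112, 95.7 and 151 CPM with no overlap (-1.24 ± 0.25 SE, edgeR adjusted p 0.000729), and its mean was 10.2 ± 1.84 CPM in unoperated muscle. Ache, the enzyme that clears acetylcholine at the junction, rose from 15.5, 7.23, 7.48 and 6.301 to 26.1, 55.4, 41.5 and 42.02 CPM, 4.52-fold (2.18 ± 0.25 SE, edgeR adjusted p 6.83e-06), toward the 105 ± 7.72 CPM of unoperated muscle. In the whole junction list 3 of 19 genes were higher and 5 lower, with a median of -0.07.

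Regulators split in the same mixed way. Hdac4, a histone deacetylase that links loss of nerve activity to receptor and atrophy genes, stood at 93.6, 101, 105 and 89.9 CPM at 10 days and 31.8, 29.8, 22.8 and 28.3 at 30 days. That was a 3.46-fold fall with no overlap (-1.79 ± 0.19 SE, edgeR adjusted p 2.63e-06). Myog (myogenin), the muscle transcription factor it acts through, changed little, from 444 to 518 to 341 to 505 CPM (-0.24 ± 0.14 SE, edgeR adjusted p 0.174), and was called without library 1 of 30 days (-0.35, adjusted p 0.0497) and with library totals (-0.39, adjusted p 0.0389). Tmem8c, the fusion protein myomaker, rose from 13.2, 13.5, 14.9 and 21.4 to 75.2, 30.5, 20.7 and 53.6 CPM (1.51 ± 0.32 SE, edgeR adjusted p 0.00109), although library 3 of 30 days lay under library 4 of 10 days. Pax7, the marker of muscle stem cells, was low throughout and not called (0.723 to 1.103 and 0.248 to 0.855 CPM, -0.70 ± 0.37 SE, edgeR adjusted p 0.132). Of 16 tested regulators 2 were higher and 4 lower (median -0.11), and without library 2 of 10 days or library 3 of 30 days 2 were lower.

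The promoters of the alpha and gamma receptor subunits are shown because the E-box CAGCTG, a binding motif of myogenic factors such as myogenin, stands just before both starts. The letters CAGCTG, their own reverse complement, occur in the 250 bases before 11.97% of all 33469 starts in the RefSeq promoter table of the rat assembly GRCr8 and in 13.0% of the 9351 tested genes matched to it. Each sequence is the 250 bases before the start, from 5′ to 3′ on the gene's strand, with the motif in capitals.
Chrna1: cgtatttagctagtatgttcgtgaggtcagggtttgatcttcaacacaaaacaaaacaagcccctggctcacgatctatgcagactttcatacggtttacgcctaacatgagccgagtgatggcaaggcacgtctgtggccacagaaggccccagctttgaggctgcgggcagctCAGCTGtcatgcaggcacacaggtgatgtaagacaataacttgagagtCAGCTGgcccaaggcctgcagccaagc
Chrng: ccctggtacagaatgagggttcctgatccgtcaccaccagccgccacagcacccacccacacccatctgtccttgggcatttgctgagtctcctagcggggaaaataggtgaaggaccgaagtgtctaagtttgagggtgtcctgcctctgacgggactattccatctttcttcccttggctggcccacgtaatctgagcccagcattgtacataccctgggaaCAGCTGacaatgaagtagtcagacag
The Chrna1 window lies on the minus strand at chr3:78877354-78877603 and holds the motif with first bases at -75 and -27 from the start, and the Chrng window lies on the plus strand at chr9:95325734-95325983 with 1 match at -26. Despite the shared letters, the levels of both genes overlapped between 10 and 30 days. Of the 19 junction genes 14 had a window in the table, under the 80% needed, so no share is read from the list. A match is a description of letters and not a bound site.

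Contractile genes rose together, 25 of 29 higher and 0 lower, with a median of 1.06 (1.07 with R titles alone and 0.89 with L titles alone). Myl3, a light chain of slow and cardiac myosin, stood at 196, 88.1, 45.1 and 107 CPM at 10 days and 958, 1057, 1524 and 1393 at 30 days, an 11.3-fold rise (3.499 ± 0.36 SE, edgeR adjusted p 2.41e-06). All 4 libraries of 30 days lay above the highest of 10 days and below the unoperated mean of 1650.4 ± 164 CPM. Myl2, its partner light chain, rose 6.72-fold (2.75 ± 0.29 SE, edgeR adjusted p 2.94e-06), from 36.8 to 89.2 to 295 to 529 CPM.

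The myosin heavy chains, the motor proteins that set fibre speed, did not follow 1 pattern. Myh1 (fast type 2X) rose from 4924, 3592, 3074 and 3356 to 12275, 13659.5, 15500.5 and 15979 CPM (1.94 ± 0.19 SE, edgeR adjusted p 1.16e-06), against 28543 ± 7940.4 in unoperated muscle. Myh2 (fast type 2A) rose from 3367, 1607, 1234 and 1669 to 5314, 6835, 6198 and 4660.3 CPM (1.55 ± 0.23 SE, edgeR adjusted p 5.98e-05). Myh3, the embryonic heavy chain of newly forming or regenerating fibres, rose from 650.1, 262, 349 and 431 to 2306, 1227, 1258 and 1921 CPM (1.99 ± 0.35 SE, edgeR adjusted p 0.000248), further from the 120.4 ± 40.04 of unoperated muscle. Myh4 (fast type 2B) did not rise: its 10589, 12065, 15743 and 12091 CPM at 10 days and 9529, 13314, 14681 and 10975 at 30 days overlapped (-0.06 ± 0.21 SE, edgeR adjusted p 0.844), and the sign flipped to 0.01 with upper-quartile factors. Unoperated muscle had 45929.9 ± 8288 CPM of it. Myh7, the slow heavy chain, was called (558 to 1343 to 1443 to 2188 CPM, 0.89 ± 0.29 SE, edgeR adjusted p 0.0210), but not without library 3 or 4 of 10 days (0.71, adjusted p 0.0628 and 0.78, adjusted p 0.0593) or library 4 of 30 days (0.75, adjusted p 0.0598). The slow troponin Tnni1 rose (1.28 ± 0.24 SE, edgeR adjusted p 0.000484).

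Creatine kinases, which buffer ATP in working fibres, rose with them. Ckm, the cytosolic muscle form, was at 5737, 4905, 5370.3 and 4803 CPM at 10 days and 8352, 16218, 19436 and 13520.2 at 30 days (1.47 ± 0.19 SE, edgeR adjusted p 1.21e-05). Library 1 of 30 days was the lowest of its group and still above every 10-day library. Ckmt2, the mitochondrial form, rose 5.01-fold from 260.5, 162, 129 and 193 to 612, 1190.3, 1125 and 801 CPM (2.33 ± 0.28 SE, edgeR adjusted p 9.53e-06). Of the 18 calcium-handling and creatine genes 12 were higher and 2 lower (median 0.46). Cacnb1, the beta subunit of the calcium channel that triggers contraction, went the other way, from 583 to 713 to 368 to 437 CPM (-0.71 ± 0.11 SE, edgeR adjusted p 6.57e-05). Sln (sarcolipin), an inhibitor of the calcium pump, was at 8.599 ± 1.27 CPM in unoperated muscle, 421 to 681 at 10 days and 687 to 908 at 30 days (0.49 ± 0.14 SE, edgeR adjusted p 0.00876), a difference lost with library totals (0.33, adjusted p 0.0601). The slow pump Atp2a2 overlapped (0.05, and -0.11 with library totals).

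The Ckm window is shown since this promoter is a classic target of myogenic factors. It lies on the plus strand at chr1:88189211-88189460, and the E-box letters, in capitals, start at -226 and -75.
Ckm: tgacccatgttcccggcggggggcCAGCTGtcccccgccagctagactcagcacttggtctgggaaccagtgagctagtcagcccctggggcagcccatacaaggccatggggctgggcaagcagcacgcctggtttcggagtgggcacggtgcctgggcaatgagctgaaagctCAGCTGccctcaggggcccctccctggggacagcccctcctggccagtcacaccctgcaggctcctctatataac
Unlike both receptor genes with the same letters, Ckm showed no overlap between its groups.

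Every respiratory chain gene tested in the lists rose. Complex I, the entry point for electrons from NADH, had 34 of 34 tested subunits higher, with a median of 1.03 and a range of 0.40 to 1.43. Complexes II to V with cytochrome c had 39 of 39 higher (median 1.02, range 0.40 to 1.64), against 23.0% of all genes. These counts were the same with RLE factors, upper-quartile factors and library totals, and without each library in turn, and were 24 and 33 with R titles alone and 32 and 37 with L titles alone. The summed level of complex I genes was 4613 to 5373 CPM at 10 days and 8221 to 11732 at 30 days, beside 12351 to 13873 in unoperated muscle and 10428 to 13679 at 60 days.

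Single subunits showed the spread. Ndufs7, an iron-sulfur subunit of complex I, stood at 119, 112, 101 and 93.3 CPM at 10 days and 195, 314, 383 and 251 at 30 days, with the lowest 30-day value in library 1 (1.43 ± 0.15 SE, edgeR adjusted p 2.78e-06). Ndufs3 of the same arm rose from 143, 121, 118 and 129.9 to 239.9, 351, 402 and 293 CPM (1.33 ± 0.13 SE, edgeR adjusted p 1.42e-06). Ndufs1, the largest complex I subunit, rose less and overlapped by a narrow margin, library 1 of 30 days at 401 CPM against 402 in library 1 of 10 days (0.54 ± 0.12 SE, edgeR adjusted p 0.00186). Sdhb of complex II, shared with the citric acid cycle, rose from 239 to 308 to 450.1 to 693 CPM (1.07 ± 0.12 SE, edgeR adjusted p 3.2e-06). Uqcrc2 of complex III rose by less (0.71 ± 0.10 SE, edgeR adjusted p 2.65e-05). Cox6a2, the muscle form of a cytochrome oxidase subunit, went from 532, 411, 429 and 452 to 941, 1327, 1821 and 1227 CPM (1.54 ± 0.15 SE, edgeR adjusted p 8.68e-07), and the ubiquitous subunit Cox4i1 rose by less (1.16 ± 0.12 SE, edgeR adjusted p 1.48e-06). Atp5g3, part of the rotor ring of ATP synthase, rose from 297, 244, 231 and 291 to 649, 899, 1014 and 759 CPM, 3.12-fold (1.64 ± 0.16 SE, edgeR adjusted p 8.56e-07), the largest rise of the list. Libraries 2 and 3 of 30 days lay above the unoperated mean of 822 ± 61.3 CPM, while Atp5a1, the catalytic alpha subunit, stayed at 1777 to 2567 against 4220.2 ± 234 (0.87 ± 0.12 SE, edgeR adjusted p 2.02e-05).

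Ndufa12 and Uqcrc1, members of complexes I and III, are shown because their start regions carry the NRF1 motif (the bases GCGCA, any base, then GCGC, searched on both strands). NRF1 is a transcription factor known for driving respiratory genes. The motif was found before 6 of 31 matched complex I genes (19.4%) and 5 of 33 matched genes of the other complexes (15.2%), beside 8.87% of the 9351 tested genes matched, 7.25% of those called higher and 12.5% of those called lower.
Ndufa12: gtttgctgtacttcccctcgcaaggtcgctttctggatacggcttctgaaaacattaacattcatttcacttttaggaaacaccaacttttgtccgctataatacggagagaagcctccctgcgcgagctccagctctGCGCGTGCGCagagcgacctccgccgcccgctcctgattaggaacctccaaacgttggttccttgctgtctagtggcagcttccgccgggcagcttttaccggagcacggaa
Uqcrc1: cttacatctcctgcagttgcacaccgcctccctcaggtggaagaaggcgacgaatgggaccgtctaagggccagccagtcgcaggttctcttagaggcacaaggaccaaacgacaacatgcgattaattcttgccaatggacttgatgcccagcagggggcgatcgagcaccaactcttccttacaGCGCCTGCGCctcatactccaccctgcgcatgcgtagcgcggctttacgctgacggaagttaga
Ndufa12 (1.24 ± 0.11 SE, edgeR adjusted p 5.06e-07) and Uqcrc1 (1.14 ± 0.14 SE, edgeR adjusted p 7.64e-06) both rose, and were chosen for display by this motif after their values were seen. The Ndufa12 window lies on the plus strand at chr7:30658066-30658315 with the match from -112, and the Uqcrc1 window on the plus strand at chr8:118467973-118468222 with the match from -64. In both the motif reads on the opposite strand. Most of the matched respiratory genes had no such letters in their window.

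**Figure D3:**
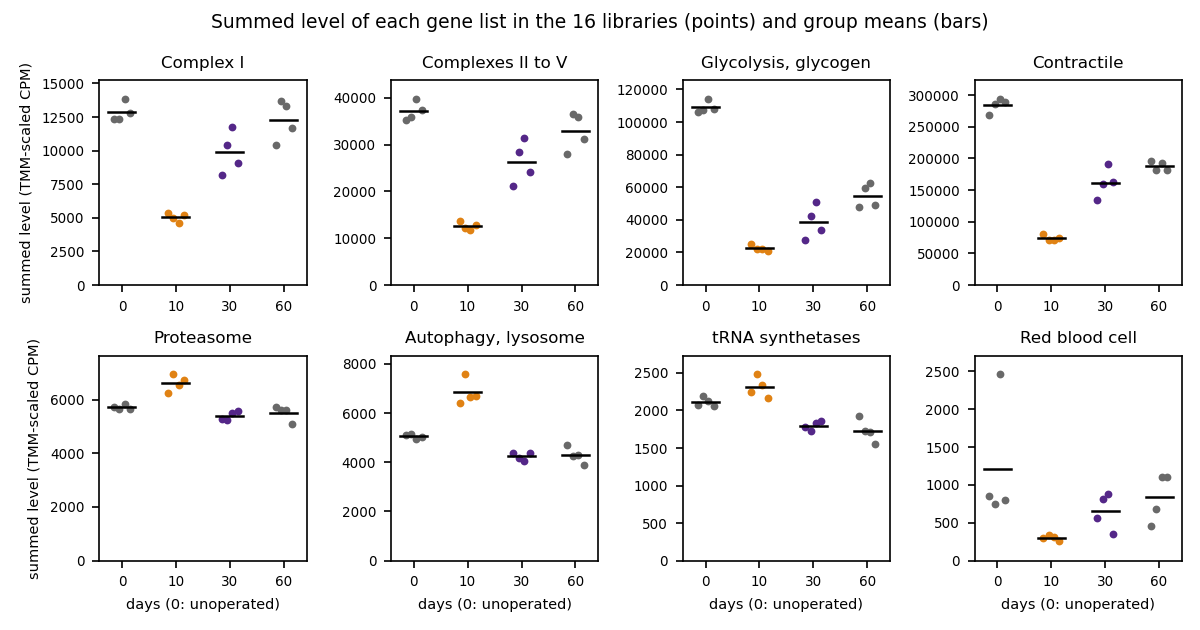
Each panel sums the TMM-scaled CPM of 1 gene list in the 16 libraries (points) with group means (bars), at 0 (unoperated), 10, 30 and 60 days, on axes that start at 0. Complex I sums of the 30-day libraries (8221 to 11732 CPM) all lie above those of the 10-day libraries (4613 to 5373), and proteasome, autophagy and tRNA synthetase sums all lie below.

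Fuel pathways that feed the chain rose in part. Of 21 genes of pyruvate entry and the citric acid cycle 14 were higher and 1 lower (median 0.53, 3 lower with library totals). Of 25 fatty acid genes 14 were higher and 0 lower (median 0.50). With R titles alone the medians of the 2 lists were 0.41 and 0.22, and with L titles alone 0.47 and 0.54. Idh2, the mitochondrial isocitrate dehydrogenase that makes NADPH, stood at 631, 284, 302 and 333 and 687, 1386, 1305 and 887 CPM (1.46 ± 0.26 SE, edgeR adjusted p 0.00027). Library 1 of 10 days was high in its group and library 1 of 30 days low, and these lay close to each other without overlap. Hadh, a fatty acid oxidation enzyme, rose from 102, 59.7, 53.02 and 74.9 to 124, 250.3, 238 and 168 CPM (1.43 ± 0.21 SE, edgeR adjusted p 5.58e-05), and Acadm, the medium-chain dehydrogenase, rose 2.31-fold (1.21 ± 0.16 SE, edgeR adjusted p 1.51e-05). Cs, citrate synthase, which is often used as a measure of mitochondria, was 261 to 336 CPM at 10 days and 289 to 372 at 30 days and not called (0.08 ± 0.12 SE, edgeR adjusted p 0.613, and -0.09 with library totals). The carnitine shuttle Cpt1b was not called either (0.09 ± 0.09 SE, edgeR adjusted p 0.401, and -0.07 with library totals).

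Of 17 known regulators of mitochondria 3 were higher and 6 lower. Ppargc1a (PGC-1α), the coactivator of mitochondrial biogenesis, ranged over 8.85, 5.85, 4.18 and 7.81 CPM at 10 days and 8.01, 9.45, 8.44 and 7.32 at 30 days (0.32 ± 0.17 SE, edgeR adjusted p 0.140), and was called without library 1 of 10 days (0.48, adjusted p 0.0267). Tfam, which packages and transcribes mitochondrial DNA, fell from 113, 127, 124 and 132 to 101, 101, 99.5 and 102 CPM, a small change in libraries that agreed closely (-0.30 ± 0.06 SE, edgeR adjusted p 0.000538). Perm1, listed in the table under its older name RGD1304931 and known as a muscle target of PGC-1, rose from 54.6, 20.4, 13.5 and 19.5 to 56.9, 193, 172 and 104 CPM (2.28 ± 0.40 SE, edgeR adjusted p 0.000284). Genes of mitochondrial ribosomes were mostly higher, 26 of 36, with 3 lower (median 0.40), or 1 lower without library 2 of 10 days or with upper-quartile factors. Mrpl12 rose from 70.1 to 92.8 to 137 to 219 CPM (1.18 ± 0.13 SE, edgeR adjusted p 3.04e-06), and Mrps10 fell (-0.56 ± 0.13 SE, edgeR adjusted p 0.00208).

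Genes of sugar use rose in most steps and fell in others. Of 27 genes 20 were higher and 5 lower (median 0.67, 0.48 with R titles alone and 0.55 with L titles alone). Fbp2, the muscle fructose bisphosphatase, had the largest rise, from 6.12, 1.68, 5.01 and 4.64 to 15.3, 69.7, 83.5 and 34.9 CPM (3.54 ± 0.48 SE, edgeR adjusted p 2.64e-05). Library 1 of 30 days was lowest of its group by far, yet above every 10-day library. Slc2a4 (GLUT4), the insulin-sensitive glucose carrier, rose from 351, 215, 240.4 and 219.8 to 367, 564, 606 and 448 CPM (0.95 ± 0.16 SE, edgeR adjusted p 0.000126), and Ldha, lactate dehydrogenase A, from 994 to 1399 to 1727 to 2579 CPM (0.93 ± 0.14 SE, edgeR adjusted p 4.47e-05). Hk2, the hexokinase that traps glucose in muscle, fell from 132, 162, 137 and 110.3 to 34.2, 46.6, 30.1 and 38.6 CPM (-1.85 ± 0.18 SE, edgeR adjusted p 1.08e-06), below the 114 ± 3.65 of unoperated muscle. Phka1, the muscle subunit of the kinase that switches on glycogen breakdown, stood at 626, 861, 587 and 503 CPM at 10 days, near the 573 ± 47.8 of unoperated muscle, and fell to 109, 143, 130.4 and 124 at 30 days (-2.35 ± 0.20 SE, edgeR adjusted p 4.38e-07). Its mean stayed at 91.7 ± 31.6 CPM at 60 days.

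Fat genes gave no common direction, although fat is what this injury is studied for. Of 22 lipid synthesis genes 5 were higher and 7 lower (median 0.10, and -0.06 with library totals), and of 19 storage and droplet genes 3 were higher and 3 lower (median 0.20). Without library 1, 2 or 4 of 10 days or library 3 of 30 days 3 synthesis genes were higher, and without library 2 of 10 days or library 3 of 30 days 1 storage gene was. With library totals 2 synthesis genes and 1 storage gene were higher. Scd1, the desaturase that makes monounsaturated fatty acids, was at 5.48 ± 1.45 CPM in unoperated muscle and at 890.4, 1027, 772 and 975 at 10 days. It was 1876, 957, 872 and 1194 at 30 days, overlapping with library 1 far above the others (0.42 ± 0.27 SE, edgeR adjusted p 0.213), and 47.98 ± 18.3 at 60 days. Fasn, fatty acid synthase, fell from 24.7, 21.7, 17.9 and 18.4 to 13.96, 13.5, 13.4 and 12.99 CPM (-0.62 ± 0.17 SE, edgeR adjusted p 0.00624). Mlxipl (ChREBP), a glucose-sensing factor of lipid genes, rose from 11.7 to 14.6 to 17.5 to 32.4 CPM (1.08 ± 0.17 SE, edgeR adjusted p 7.44e-05).

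Genes of the lipid droplet differed among themselves. G0s2, an inhibitor of the main triglyceride lipase, rose from 9.84, 3.55, 2.999 and 9.74 to 19.9, 72.8, 93.7 and 36.95 CPM (3.09 ± 0.48 SE, edgeR adjusted p 8.7e-05). Abhd5, the activator of the same lipase, fell from 12.5, 12.5, 11.9 and 13.5 to 5.99, 6.86, 5.44 and 6.63 CPM (-1.01 ± 0.15 SE, edgeR adjusted p 5.61e-05). The lipase gene itself, Pnpla2, is listed at 0 in all 8 libraries, which can be a failed estimate, and gives no value. Plin1 and Cidec, droplet proteins of fat cells, were at 1.84 to 6.67 and 1.28 to 4.701 CPM at 10 days and 1.57 to 4.796 and 1.49 to 4.08 at 30 days, neither called (-0.39 and -0.10). Adipoq, the fat cell hormone adiponectin, was not called either (11.9, 6.11, 4.45 and 10.1 and 10.3, 17.5, 13.9 and 8.002 CPM, 0.61 ± 0.42 SE, edgeR adjusted p 0.247). Its 60-day mean of 47.5 ± 18.3 CPM lay above the 30-day libraries. Of the 6 tested fat cell markers 0 were called by edgeR, DESeq2 or limma-voom, and 0 had an unadjusted edgeR p under 0.05.

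In the cholesterol list 2 of 23 genes were higher and 5 lower (median 0.001, -0.16 with library totals), or 8 lower with library totals and 4 higher with upper-quartile factors. Lss (lanosterol synthase) fell from 20.4 to 31.3 to 9.05 to 12.99 CPM (-1.23 ± 0.13 SE, edgeR adjusted p 2.55e-06). Tm7sf2, a later step, rose (1.54 ± 0.17 SE, edgeR adjusted p 3.6e-06) at levels of 0.799 to 1.22 and 2.57 to 3.401 CPM.

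Schwann cell genes rose in part. Mbp, a structural protein of myelin, stood at 8.91, 4.44, 5.503 and 4.21 CPM at 10 days and 20.4, 17.2, 15.4 and 11.3 at 30 days. Library 1 of 10 days was high in its group, and all 30-day libraries lay above it (2.79-fold, 1.48 ± 0.29 SE, edgeR adjusted p 0.000618). Unoperated muscle had 14.5 ± 2.54 CPM and muscle at 60 days 43.04 ± 16.9. Sox10, which marks the Schwann lineage whether or not it makes myelin, overlapped between 1.54 to 2.61 and 1.96 to 3.51 CPM and was not called (0.40 ± 0.28 SE, edgeR adjusted p 0.258). Ngfr, a receptor of Schwann cells that have lost their axon, was not called (8.04, 6.64, 8.27 and 6.64 and 9.32, 4.89, 3.72 and 2.895 CPM, -0.50 ± 0.32 SE, edgeR adjusted p 0.209) and was called lower without library 1 of 30 days (-0.93, adjusted p 0.0128). In the Schwann list 8 of 18 genes were higher and 0 lower (median 0.62), or 2 lower without library 1 of 30 days. In bulk muscle fewer cells of a type and less RNA per cell cannot be told apart, here or in the cell type lists that follow.

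Genes of the macrophage list disagreed in direction. Gpnmb, a lysosomal glycoprotein entered in that list, stood at 214, 225, 289 and 293 CPM at 10 days and 79.3, 52.6, 42.8 and 41.3 at 30 days, a 4.73-fold fall (-2.24 ± 0.27 SE, edgeR adjusted p 9.06e-06). Its levels were far above those of the general markers below, and which cells made it was not tested. Unoperated muscle had 6.39 ± 1.04 CPM. Cd163, a haemoglobin scavenger receptor of resident and repair macrophages, rose from 4.47, 5.13, 2.97 and 3.04 to 9.18, 10.2, 7.44 and 6.76 CPM (1.11 ± 0.26 SE, edgeR adjusted p 0.00206). The general markers Cd68 and Emr1 (F4/80) stayed in overlapping ranges, 4.73 to 11.01 and 6.34 to 8.36 CPM for Cd68 (-0.04, 0.03 with upper-quartile factors) and 5.41 to 7.52 and 5.76 to 9.03 for Emr1 (0.16). The list had 7 of 23 genes higher (4 with library totals) and 2 lower, with a median of 0.33. Its summed level was 426 to 591 CPM at 10 days and 324 to 429 at 30 days. That lower sum rested on Gpnmb: without it, a choice made after seeing the data, the sums were 201 to 301 CPM at 10 days and 282 to 351 at 30 days.

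Neutrophil and lymphocyte lists held few tested genes. The neutrophil, T cell and B cell lists had 3, 9 and 2 tested genes, and none was called. At an unadjusted edgeR p under 0.05 the numbers were 0, 1 and 1, with DESeq2 0 in each, and with limma-voom 0, 0 and 1. Cd3e of the T cell receptor was at 0.246 to 0.626 and 0.2401 to 0.567 CPM (0.04, -0.12 with library totals) and Cd8a at 0.657 to 1.45 and 0.7202 to 1.49 CPM. The cytokines Il1b and Tnf were low (0.953 to 1.75 and 0.319 to 0.723 CPM at 10 days) and not called (-0.03 and -0.03, both positive with upper-quartile factors, 0.03 and 0.04). Il15, a cytokine made by muscle itself, rose from 4.41, 3.52, 5.27 and 3.72 to 9.46, 7.46, 10.7 and 9.17 CPM (1.12 ± 0.18 SE, edgeR adjusted p 0.00013). Cfi, a complement inhibitor protease, fell (-0.94 ± 0.21 SE, edgeR adjusted p 0.00152). Cytokines and chemokines had 4 of 23 higher and 3 lower, and complement 2 of 13 higher and 1 lower. Without library 2 of 10 days or library 2 or 3 of 30 days 1 cytokine gene was lower, and without library 4 of 30 days 4 complement genes were higher. Upper-quartile factors gave 4 higher complement genes too, and library totals 0.

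Fibroblast and fibro-adipogenic progenitor markers rose, 7 of 11 higher and 0 lower (median 0.76), a count unchanged with library totals, upper-quartile factors and without each library in turn, and 5 and 6 higher with R and L titles alone. Pdgfra, the receptor that defines these progenitors, stood at 19.5, 14.7, 18.6 and 18.7 CPM at 10 days and 31.1, 29.5, 27.7 and 26.3 at 30 days (0.68 ± 0.17 SE, edgeR adjusted p 0.00364). Pi16, a marker of their stem-like perivascular state, rose from 10.997, 12.3, 9.26 and 7.07 to 20.8, 27.3, 35.6 and 27.3 CPM (1.49 ± 0.22 SE, edgeR adjusted p 5.81e-05). Both were separate in all 8 libraries, and Pi16 stood at 35.998 ± 7.15 CPM at 60 days.

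Matrix genes did not rise with them as a group: 9 of 30 were higher and 1 lower (median 0.28), or 3 lower without library 2 of 10 days. Col1a1, the main scar collagen, varied more within groups than between them, at 1151, 256, 509 and 870.1 CPM at 10 days and 261, 677, 506 and 363 at 30 days (-0.62 ± 0.44 SE, edgeR adjusted p 0.257). Col3a1 overlapped likewise (248 to 823 and 444 to 848 CPM, 0.25 ± 0.36 SE, edgeR adjusted p 0.587). Postn and Tnc, matrix proteins of fresh injury, were lowest in library 2 of 10 days (107 and 5.65 CPM), not called with it (-0.80 and -0.94) and called lower without it (-1.09, adjusted p 0.0405, and -1.26, adjusted p 0.0339). Eln, elastin, rose from 39.1, 20.4, 27.9 and 39.4 to 59.9, 88.8, 83.3 and 58.7 CPM (1.196 ± 0.27 SE, edgeR adjusted p 0.00170). Scx, a tendon cell transcription factor, fell from 57.05 to 67.7 to 23.6 to 38.05 CPM (-1.03 ± 0.13 SE, edgeR adjusted p 1.25e-05), and Acan, a cartilage proteoglycan, fell at low levels (1.61 to 5.83 and 0.425 to 1.97 CPM, -1.83 ± 0.43 SE, edgeR adjusted p 0.00229). Of 7 tendon and cartilage genes 2 were higher and 2 lower, over a range of -1.83 to 2.75, so the list had no common direction.

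Vessel genes had 8 of 19 higher and 1 lower, and the count of higher ones ran from 5 (without library 2 or 4 of 10 days or library 2 or 3 of 30 days) to 12 (without library 3 of 10 days), and was 4 with library totals. Vegfa, the main growth signal for vessels, stood at 182, 162, 156 and 176 CPM at 10 days and 397, 545, 616 and 465 at 30 days, 2.99-fold higher (1.58 ± 0.16 SE, edgeR adjusted p 1.46e-06), toward 722 ± 84.8 in unoperated muscle. Apln, a peptide of growing vessel tips, rose from 1.71 to 2.702 to 4.96 to 7.84 CPM (1.62 ± 0.31 SE, edgeR adjusted p 0.000438). Cdh5, the junction protein of endothelium, was not called (29.998 to 46.9 and 39.3 to 47.3 CPM, 0.13, and -0.04 with library totals). Mural cell genes had 5 of 10 higher and 1 lower. The pericyte marker Rgs5 fell from 29.9, 21.03, 28.4 and 24.3 to 15.98, 16.7, 13.9 and 15.6 CPM (-0.73 ± 0.12 SE, edgeR adjusted p 0.000142), while smooth muscle actin Acta2 rose (0.89 ± 0.23 SE, edgeR adjusted p 0.00545). Red blood cell genes, which report blood in the sample, summed to 254 to 334 CPM at 10 days and 349 to 877 at 30 days, with 4 of 6 higher but 0 without library 4 of 10 days or library 2 or 3 of 30 days 2 without library 1 or 3 of 10 days and 1 with library totals. Their part in the other rises was not tested.

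Most cytosolic tRNA synthetase genes fell, and most cytosolic ribosomal protein genes were not called. Of 18 cytosolic tRNA synthetases, which charge amino acids onto tRNA, 12 were lower and 0 higher (median -0.33). Vars stood at 163, 163, 166 and 132 CPM at 10 days and 70.7, 84.5, 103 and 93.4 at 30 days (-0.83 ± 0.12 SE, edgeR adjusted p 2.96e-05), and Gars and Yars fell by smaller steps (-0.23 and -0.30, edgeR adjusted p 0.00371 and 0.00173). Cytosolic ribosomal proteins had 2 of 39 higher and 5 lower (median -0.03), and 14 lower with library totals, 8 lower without library 1 of 30 days, and 5 higher and 3 lower without library 2 of 30 days or with upper-quartile factors. Rpl3l, the muscle-specific form of a ribosomal protein, rose from 277, 271, 281 and 193 to 321, 595, 631 and 378 CPM (0.91 ± 0.18 SE, edgeR adjusted p 0.000529). Its widespread counterpart Rpl3 overlapped, at 610.3, 589.5, 541 and 688 and 671, 313, 374 and 627 CPM (-0.29 ± 0.19 SE, edgeR adjusted p 0.228), and libraries 2 and 3 of 30 days, lowest in Rpl3, were the highest in Rpl3l. Being paralogs, Rpl3 and Rpl3l could share reads, and how the counting treated those is not stated.

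Stress genes gave no common direction. Hspb6, a small heat shock protein of muscle, stood at 772, 293, 262 and 383 CPM at 10 days and 1657, 2333, 2678 and 2546 at 30 days (2.43 ± 0.27 SE, edgeR adjusted p 4.75e-06), and the lens and muscle chaperone Cryab rose too (0.85 ± 0.11 SE, edgeR adjusted p 1.72e-05). Hsp90ab1, the general cytosolic chaperone, fell from 3377, 3933, 3566 and 3483 to 2153, 2016, 2048 and 2183 CPM (-0.77 ± 0.09 SE, edgeR adjusted p 7.48e-06). Hspa5 (BiP), the chaperone of the endoplasmic reticulum, rose (0.56 ± 0.08 SE, edgeR adjusted p 5.18e-05). Across the heat shock list 8 of 23 were higher and 4 lower (median 0.11, -0.06 with library totals). Among antioxidant genes 5 of 21 were higher and 7 lower (median -0.18), and 3 were higher without library 3 of 10 days or library 2 or 3 of 30 days, and 2 with library totals.

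Nqo1, a quinone reductase under control of the oxidant sensor NRF2, fell from 50.9, 90.5, 70.7 and 64.5 to 22.96, 24.1, 27.7 and 25.5 CPM (-1.46 ± 0.13 SE, edgeR adjusted p 3.44e-07). Cat, the catalase that breaks down peroxide, fell as well (412 to 565 to 131 to 265 CPM, -1.31 ± 0.23 SE, edgeR adjusted p 0.000249), and Sod3, the extracellular superoxide dismutase, rose (1.28 ± 0.16 SE, edgeR adjusted p 8.73e-06). Sat1, the enzyme that starts polyamine breakdown, fell from 228, 224, 244 and 257 to 93.3, 71.4, 77.02 and 96.2 CPM (-1.497 ± 0.10 SE, edgeR adjusted p 5.84e-08), the steepest fall of the 10 polyamine genes, 3 of which were lower (6 with library totals) and 0 higher, still above 28.1 ± 3.61 in unoperated muscle. In the integrated stress response, 5 of 21 genes were higher and 5 lower. Chac1, a glutathione-degrading enzyme of that response, fell from 31.02, 30.7, 30.4 and 14.6 to 5.17, 3.99, 4.52 and 5.15 CPM (-2.51 ± 0.29 SE, edgeR adjusted p 6.66e-06). Fgf21, a hormone muscle makes under mitochondrial stress, fell at low levels (1.02 to 2.37 to 0.2401 to 0.709 CPM, -1.63 ± 0.36 SE, edgeR adjusted p 0.00152), while Gdf15, another such hormone, rose (0.361 to 1.28 to 1.25 to 2.72 CPM, 1.54 ± 0.47 SE, edgeR adjusted p 0.0138).

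Cell cycle and clock genes were mixed. Of 26 cycle genes 5 were higher and 4 lower, with a median of 0.43, and leaving out any library but the first of 10 days gave 2 or 3 higher, as library totals did (2). Bub1, a kinase of the mitotic checkpoint, rose from 2.398 to 3.39 to 5.39 to 8.36 CPM (1.23 ± 0.17 SE, edgeR adjusted p 2.83e-05), and so did Cdk1, the kinase that starts mitosis (0.296 to 1.13 to 1.49 to 2.09 CPM, 1.198 ± 0.37 SE, edgeR adjusted p 0.0143). Of 14 clock genes 4 were higher and 3 lower, or 1 and 5 with library totals. Nr1d1 (REV-ERBα) rose (0.71 ± 0.15 SE, edgeR adjusted p 0.000915) and Bhlhe40 fell (-0.90 ± 0.17 SE, edgeR adjusted p 0.000495). The hour at which muscle was taken is not stated.

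**Figure D4:**
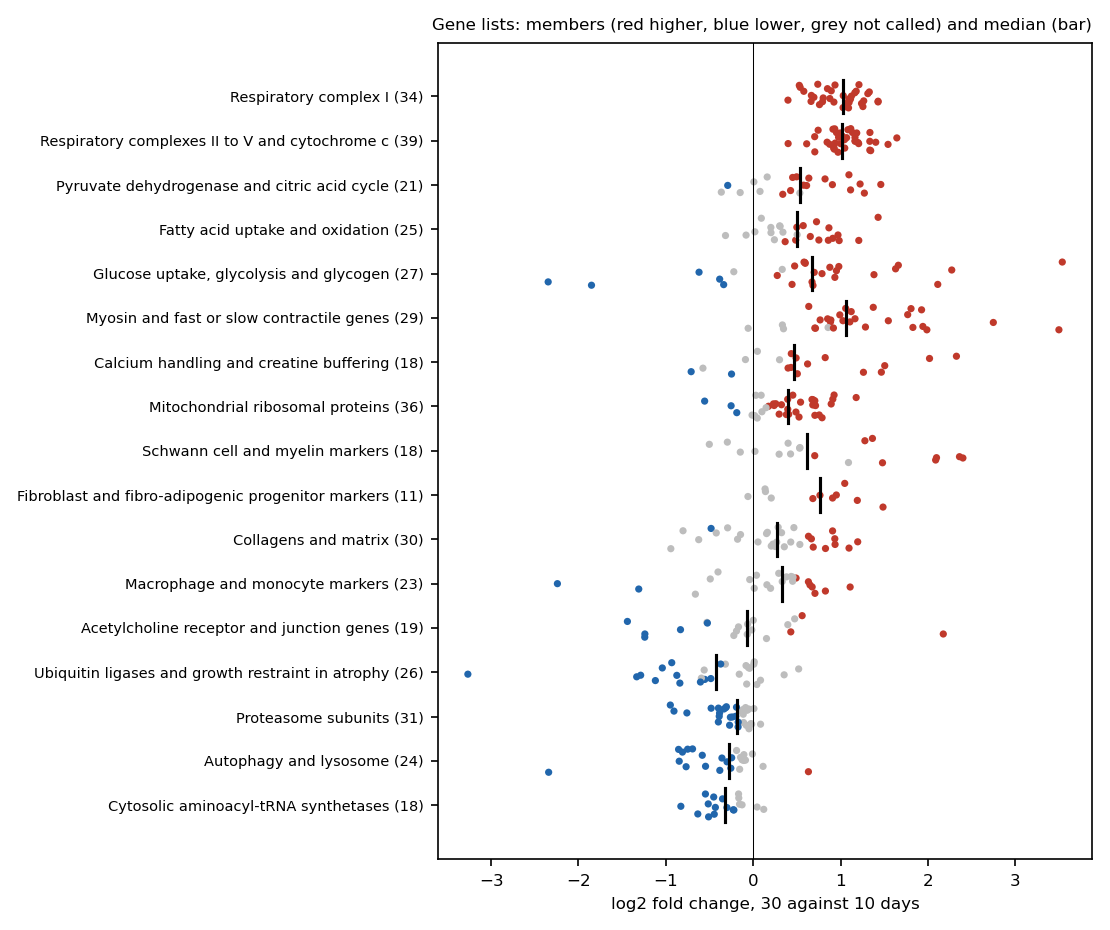
Each point is a tested gene of the list on the left (number of tested genes in brackets), placed by its log2 fold change at 30 against 10 days, red if called higher, blue if called lower and grey if not called, with the list's median as a black bar (the spread of points up and down within a row only keeps them apart). Both respiratory lists lie wholly to the right (medians 1.03 and 1.02), and proteasome and tRNA synthetase medians lie to the left (-0.19 and -0.33).

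Several of the largest changes fell outside these lists. S100a3, a small calcium-binding protein, had the largest rise among genes that could be named, from 2.29, 3.48, 1.88 and 2.43 CPM to 122, 42.9, 18.1 and 82.2 (4.72 ± 0.51 SE, edgeR adjusted p 3.76e-06). Its 30-day libraries ranged widely, all lay above the 10-day ones, and at 60 days the mean was back at 3.12 ± 1.89 CPM. Il22ra2, a soluble trap for the cytokine IL-22, had a like course, 0.638, 1.81, 1.25 and 1.199 CPM at 10 days, 25.7, 11.5, 5.36 and 12.1 at 30 days (3.48 ± 0.40 SE, edgeR adjusted p 5.64e-06) and 0.906 ± 0.309 at 60 days. Ctxn3, a small membrane protein, went from 10.04 to 24.2 to 74.1 to 181 CPM (2.92 ± 0.28 SE, edgeR adjusted p 1.45e-06) and was at 14.8 ± 3.47 at 60 days. For these 3 genes the 30-day mean was the highest of the 4 groups.

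Other large rises ended below the unoperated level in some genes and above it in others. Aqp4, the water channel of fast fibres, rose from 7.43, 2.46, 2.24 and 2.92 to 11.4, 49.6, 40.4 and 32.7 CPM (3.14 ± 0.41 SE, edgeR adjusted p 1.73e-05), against 289.6 ± 39.4 in unoperated muscle. Dhrs7c, an enzyme of the fibre's calcium store membrane, rose from 11.7 to 30.6 to 69.1 to 176 CPM (2.74 ± 0.33 SE, edgeR adjusted p 9.35e-06), against 509.6 ± 29.8. Itgb1bp2 (melusin), a mechanical stress sensor of striated muscle, rose from 46.1, 12.9, 12.8 and 21.6 to 109, 178, 221 and 147 CPM (2.804 ± 0.37 SE, edgeR adjusted p 2.14e-05), against 126 ± 5.197. Crym, which binds thyroid hormone in the cell, rose past its unoperated 3.03 ± 0.374 CPM, from 1.29 to 2.11 to 7.65 to 18.1 (2.91 ± 0.24 SE, edgeR adjusted p 2.34e-07). Anxa8, a membrane-binding annexin, rose from 2.504 to 5.39 to 17.4 to 27.3 CPM (2.59 ± 0.35 SE, edgeR adjusted p 2.33e-05), against 0.3101 ± 0.148 in unoperated muscle and 88.6 ± 53.5 at 60 days.

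Several of the large falls were in genes that stood above their unoperated level at 10 days. Akr1b8, an aldose reductase relative, went from 6.703, 13.9, 13.4 and 12.7 to 1.098, 1.21, 1.72 and 1.13 CPM (-3.18 ± 0.23 SE, edgeR adjusted p 6.86e-08), and Hsd11b2, which inactivates glucocorticoids, from 16.5, 30.1, 29.5 and 27.3 to 2.98, 3.704, 3.04 and 3.096 (-3.003 ± 0.27 SE, edgeR adjusted p 6.15e-07). Both were under 1 CPM in unoperated muscle (0.665 ± 0.119 and 0.333 ± 0.146). Slc6a9, a glycine carrier, fell with closely agreeing libraries, 13.6, 14.4, 18.8 and 18.6 CPM at 10 days and 2.09, 2.14, 2.16 and 1.93 at 30 days (-2.97 ± 0.15 SE, edgeR adjusted p 5.03e-09), against 1.81 ± 0.248 in unoperated muscle. Adra1b, an adrenergic receptor, fell from 20.1 to 26.96 to 2.303 to 5.49 CPM (-2.53 ± 0.25 SE, edgeR adjusted p 1.4e-06). Its unoperated mean of 0.0518 ± 0.0647 CPM is under the level of 3 fragments in those libraries (0.0840 to 0.131 CPM before TMM scaling). Cd24, a surface glycoprotein, and Hcn2, a pacemaker channel, differed from these, and both stood far under their unoperated level at 30 days. At 10 days Hcn2 stood near that level, while Cd24 was near it in library 2 and under it in the others. Cd24 was at 284, 461, 309 and 309 CPM at 10 days and 109.6, 37.3, 52.9 and 34.7 at 30 days (-2.54 ± 0.31 SE, edgeR adjusted p 9.82e-06), against 435 ± 64.8 in unoperated muscle, and Hcn2 at 27.8 to 33.7 and 4.16 to 8.22 (-2.38 ± 0.32 SE, edgeR adjusted p 2.38e-05), against 33.1 ± 11.4.

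Library 1 of 30 days stood apart in several injury genes. Mt1a, a metal-binding stress protein, was 85.5 CPM in it and 23.6, 18.4 and 27.5 in the other 30-day libraries, beside 38.9 to 53.6 at 10 days. The gene was not called with it (-0.27 ± 0.34 SE, edgeR adjusted p 0.547) and was called lower without it (-1.01, adjusted p 7.61e-05). The same held for Gadd45a, a denervation-induced growth arrest gene (-0.29, then -0.57, adjusted p 0.0167), for Asns, asparagine synthetase (-0.52, then -1.18, adjusted p 0.00607), for Spp1 (osteopontin) of activated macrophages (-0.49, then -1.36, adjusted p 0.0292), and for the alarmin S100a8 (-0.58, then -1.402, adjusted p 0.00697). These genes were chosen for this account after their values were seen. With each of the 8 libraries left out in turn the number of genes called ran from 4768 to 5309.

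The 60-day and unoperated libraries share none with the 8 compared here, so their difference can be set beside the 30 against 10 day one. It had 6880 genes called (59.0%), 3489 higher (29.9%) and 3391 lower (29.1%) at 60 days. Of the genes that rose from 10 to 30 days 45.6% were higher at 60 than at 0 days and 17.5% lower. Of the genes that fell 58.4% were lower at 60 than at 0 days and 9.50% higher. Seen from the other side, genes higher from 10 to 30 days made up 35.02% of those higher at 60 than at 0 days, and genes lower from 10 to 30 days made up 48.8% of those lower at 60 than at 0 days. With library totals 82.7% of the genes called at 60 against 0 days were higher, so these shares move with scaling. Both differences came from the same fit, which shares the scaling and each gene's spread, so their calls are not independent.

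**Figure D5:**
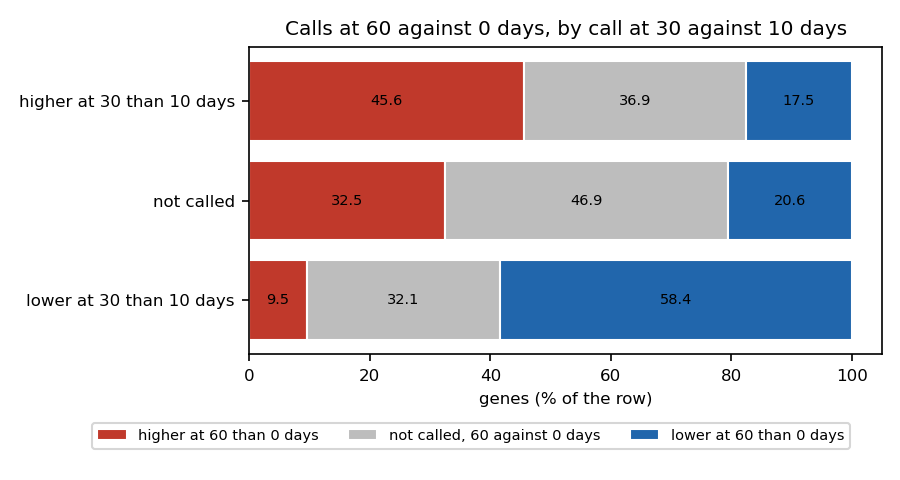
Bars split the genes higher, not called and lower at 30 against 10 days (rows) by their call at 60 against 0 days, as percent of the row: red higher, grey not called, blue lower at 60 days. Of the genes lower at 30 days 58.4% were lower at 60 than at 0 days, and of those not called 20.6%.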

How the data were processed

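The authors deposited 1 table of raw fragments per gene, which are expected counts (233 of 17147 genes hold a fractional value) and not normalized. Per the submitters' processing notes, bcl2fastq 1.8.4, FastQC, TopHat2 2.0.9, Bowtie2 2.1.0.0, Cufflinks and Cuffdiff 2.1.1 and build rn5 were used, and annotation, strandedness and filters are not given in the sources used here. Per the labels, RNA was isolated with miRNeasy and libraries came from the TruSeq mRNA kit. Here values were rounded, low genes removed (filterByExpr by group), and all 16 libraries fitted in 1 edgeR quasi-likelihood model with TMM factors and robust estimation, contrasting 30 with 10 days, with Benjamini-Hochberg adjusted p over 11658 genes. Groups came from the time in the labels. Genes named were the 15 largest rises and falls (called, mean of at least 5 CPM, groups separate), preset genes of 40 lists, and the called extremes of each list. Some genes that these rules take in are not reported here. Members and lists were chosen with earlier results of these data known. Of 856 list entries 818 were in the table, and 781 were tested. The fit was run on simulated data in which 200 genes changed. It recovered 154 of them at 2-fold and 102 at 1.5-fold, with 8 and 4 false calls. Far fewer genes changed there than were called in the data, so the simulation cannot test the scaling. Alternatives were RLE, upper-quartile and library total scaling, DESeq2, limma-voom, other filters on low counts, blocking on the replicate number, adding the title letter to the model or splitting by it, no robust estimation, a stricter adjusted p (0.01), fitting 10 and 30 days without the other groups, and leaving out each library. Promoter windows came from RefSeq (GRCr8) by symbol or older symbol, the first start listed per gene, and rn5 coordinates were not used here. Totals ran from 22.9 to 39.9 M fragments in the 8 libraries. Versions were edgeR 4.0.16 and limma 3.58.1 under R 4.3.3, with DESeq2 1.42.0 as an alternative, and python 3.11.15 for figures and counts.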

Additional observations from a re-analysis of the deposited data

Results flagged for a closer look

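In 16 of 280 groups of 4 libraries the highest or lowest library stood far from the other 3 (its gap to the nearest, as a share of the group's range, passed Dixon's critical value), and chance alone gives about 1 in 20 such groups. Library 1 of 10 days was high in Ache (15.5 CPM), Aqp4 (7.43), Idh2 (631) and RGD1304931 (54.6). Library 4 of 10 days was low in Chac1 (14.6 CPM), Rpl3l (193) and Vars (132). Library 1 of 30 days was high in Asns (3.51 CPM) and Mt1a (85.5) and low in Bnip3 (357). Library 2 of 30 days was high in Cd68 (8.36 CPM) and Hsd11b2 (3.704), and had the highest total, 39.9 M fragments. The rest were library 2 of 10 days, high in Cd24 (461 CPM), library 3 of 10 days, low in Cryab (1038), and library 3 of 30 days, high in Tm7sf2 (3.401).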

How the results depend on the processing

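No gene called in the comparison of 30 with 10 days was called the other way under any alternative, and 71.1% to 99.8% of the calls were kept, except with the titles split. With R titles alone (1 library at 30 days, assumed to vary like the other groups) 2027 genes were called, 965 higher and 1062 lower, 34.7% of the calls were kept, and 60 against 0 days had 4319. With L titles alone (1 library at 10 days, the same assumption) 2528 were called, 1076 higher and 1452 lower, and 44.2% were kept. Fewer libraries enter both. Genes called higher numbered 1533 with library totals and 1745 at an adjusted p under 0.01. Leaving out each library gave 4768 to 5309 called genes. Of the 101 called genes whose fold change is given above, 99 stayed called with library totals, 96 at an adjusted p under 0.01, and fewer with the titles split. All kept their sign under every alternative that tested them (Fgf21 was not tested with a mean of at least 1 CPM). They were taken as called in the same counts, so the kept signs are no separate support. Among the genes above that were not called, Mt1a reversed with R titles alone, to 0.88, where the library that stood apart is the whole 30-day side. Column suffixes recur across groups, and taking them as a replicate block gave 5397 called genes. The deviations of libraries of the same suffix had correlations of -0.237, -0.219, 0.032 and -0.00321, which gave no sign of pairing. So few pairs, all of which differ in title letter, cannot exclude it. Depth sets a floor of 0.0752 to 0.131 CPM (3 fragments, before TMM scaling), near which genes such as Cd3e and Fgf21 were measured.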
